A study of Homo sapiens with 9 samples.

Results

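Chromosome 22 and the part of chromosome 9 around ABL1 were examined in peak lists from K562 cells, in which these chromosomes are joined by the BCR-ABL1 fusion. The members were all peaks on chromosome 22 and all chromosome 9 peaks with a start from 133000000 to 135000000, in the hg19 coordinates of the deposited lists, which gave 781 of 20698 peaks. Of these, 662 of 15115 came from the SRA lists and 119 of 5583 from the LacZ lists. The BCR breakpoint was taken at 23632600 of chromosome 22 and the ABL1 breakpoint at 133607000 of chromosome 9. Neither position was measured here, and copy number was not measured either, so the segments are named by their side of these positions. The fusion segments are chromosome 22 before the BCR breakpoint, with 538 peaks, and the chromosome 9 window from the ABL1 breakpoint on, with 114 peaks. Beyond the BCR breakpoint lay 117 peaks, and 12 peaks lay in the window before the ABL1 breakpoint.

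The series holds 3 SRA ChIRP samples, 3 LacZ ChIRP samples and 3 input samples of K562, an established erythroleukemia line, and the inputs were not analysed here. Probes against the lncRNA SRA, the steroid receptor RNA activator, were compared with probes against bacterial lacZ as the control. Each ChIRP sample has its own list of MACS peaks, each with a position and a score. The methods of the study call the ChIRP samples biological replicates, without a word on separate cultures. Read depth is unknown, and the p-values given here measure only the spread between lists, which may be technical.

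In ChIRP, tiling probes retrieve an RNA from sheared, crosslinked chromatin, and the DNA that comes with it is sequenced. The Philadelphia translocation joins the start of BCR, whose product regulates small GTPases, to the kinase-coding part of ABL1, and the fused tyrosine kinase is constitutively active and drives chronic myeloid leukemia. In the fusion the DNA before the BCR breakpoint lies next to the DNA that follows the ABL1 breakpoint, and K562, which was derived from this leukemia, is known to carry it in extra copies.

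SRA peaks were wide in both fusion segments, and those of LacZ lists 1 and 2 were wide before the BCR breakpoint. A position is a distinct pair of start and end in the SRA lists. Over all 8658 SRA positions of the genome the median width was 157 bp, and 1.72% were wider than 1000 bp. Before the BCR breakpoint the median was 797 bp and 101 of 263 positions were wider than 1000 bp, and after the ABL1 breakpoint the median was 1294 bp and 32 of 56 were. The 133 wide positions of both segments made up 89.3% of the 149 found in the genome, although the segments held 3.68% of all SRA positions. None of the 44 SRA positions beyond the BCR breakpoint was wider than 196 bp, and none of the 5 before the ABL1 breakpoint was wider than 194 bp. The rule that chose the members used position alone and not width.

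By list, 61 of 134, 57 of 128 and 77 of 189 SRA peaks before the BCR breakpoint were wider than 1000 bp in lists 1, 2 and 3. The same segment held 13 such peaks of 43 in LacZ list 1 and 7 of 43 in LacZ list 2. In SRA lists 1, 2 and 3, both fusion segments together held 80 of 91, 79 of 94 and 102 of 114 of all peaks of this width, which is 87.9, 84.0 and 89.5%. They held 15 of 16 in LacZ list 1 and 8 of 11 in LacZ list 2, which is 93.8 and 72.7%. The SRA lists thus lay between LacZ lists 1 and 2 in this share. LacZ list 3 stood apart, since its narrowest peak measured 545 bp and 174 of its 290 peaks were wider than 1000 bp, of which 1 lay in a fusion segment. Width in that list therefore says nothing about these segments. After the ABL1 breakpoint the LacZ median was 765 bp from 10 peaks in list 1, 186 bp from 3 peaks in list 2 and 650 bp from 1 peak in list 3.

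Median width before and beyond the BCR breakpoint was 884 and 137 bp in SRA list 1, 872.5 and 137 bp in list 2 and 811 and 138.5 bp in list 3. It was 538 and 144 bp in LacZ list 1 and 519 and 131.5 bp in LacZ list 2. The single LacZ list 3 peaks on either side measured 2046 and 809 bp. The SRA lists and LacZ lists 1 and 2 were wider before the breakpoint than beyond it, and before it the SRA lists were wider than these LacZ lists, while beyond it the 5 lists were alike. The mean difference between the sides was 718 bp in the SRA lists and 391 bp in LacZ lists 1 and 2, or 673 bp with the 2 peaks of LacZ list 3.

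**Figure D1:**
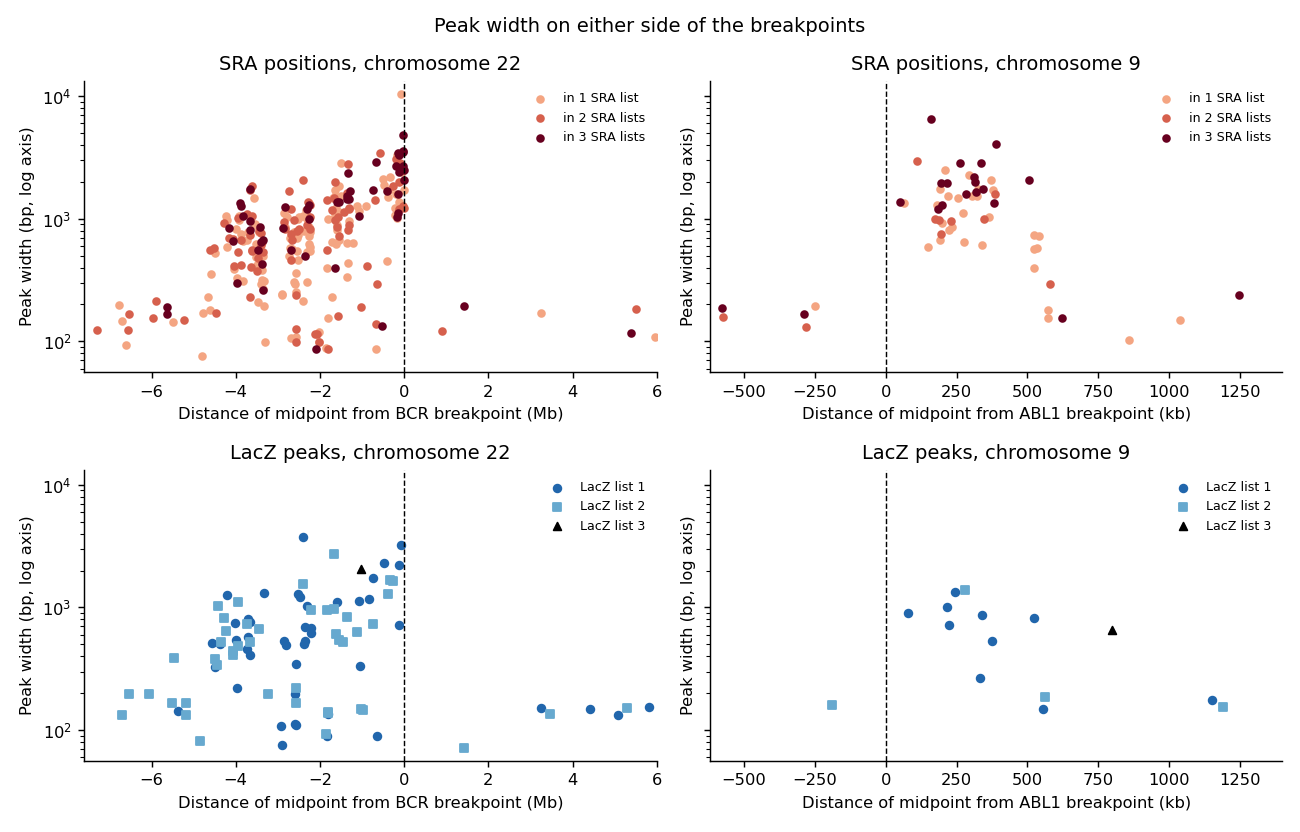
Width of each peak (bp, log axis) against the distance of its midpoint from the BCR breakpoint (Mb, left) and the ABL1 breakpoint (kb, right), with SRA positions above, coloured by the number of SRA lists that hold them, and LacZ peaks below; the left panels end 6 Mb beyond the breakpoint. Peaks wider than 500 bp lie to the left of the BCR line and to the right of the ABL1 line, and SRA positions beyond the BCR line measure at most 196 bp.

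On chromosome 22, wide peaks began only part of the way into the fusion segment. The stretch described here runs by definition from the first to the last SRA position wider than 500 bp, so no SRA position of that width in the segment lies outside it. SRA positions wider than 500 bp ran on chromosome 22 from chr22:19025032-19025588 to chr22:23628144-23630203, a span of 4605 kb that ended 2.40 kb before the breakpoint. LacZ lists 1 and 2 gave a span of 4474 kb, from chr22:19074105-19074614 to chr22:23545265-23548520, which lay inside that of SRA and ended 84.1 kb before it. The 16 SRA positions of the segment that preceded the stretch had a median width of 160.5 bp and reached at most 230 bp, and the 8 peaks of LacZ list 2 there had a median of 166.5 bp and reached 387 bp. Within the stretch, 182 of 247 SRA positions were wider than 500 bp, and so were 26 of 42 peaks of LacZ list 1 and 22 of 35 of LacZ list 2. Over the genome this held for 3.29% of SRA positions and for 1.64 and 1.15% of the peaks of LacZ lists 1 and 2. The way its ends were set raises the SRA share in the stretch by construction. Over the whole segment the share was 182 of 263 SRA positions, or 69.2%.

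On chromosome 9 the corresponding stretch was short. It ran from chr9:133657720-133659088, which begins 50.7 kb after the ABL1 breakpoint, to chr9:134146555-134147281, a span of 490 kb. Of the 49 SRA positions in it, 48 were wider than 500 bp, and the 7 in the rest of the segment reached at most 296 bp. LacZ list 1 held 8 peaks in the stretch, 7 of them wider than 500 bp, LacZ list 2 held 1 and LacZ list 3 none. LacZ peaks of this width in lists 1 and 2 began at chr9:133683903-133684800 and ended at chr9:134129207-134130019, inside the SRA stretch.

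Taken in windows of 1 Mb, width also rose along chromosome 22 towards BCR, though unevenly. In the windows of 1 Mb that begin at 19, 20, 21, 22 and 23 Mb, the median width of SRA positions was 684, 569, 779, 1133 and 1938.5 bp. The number wider than 1000 bp was 9 of 41, 8 of 55, 23 of 69, 25 of 45 and 36 of 38. For LacZ lists 1 and 2 together the medians were 524.5, 498, 528, 616.5 and 1689 bp, from 24, 7, 25, 14 and 7 peaks. Both probe sets were thus widest in the window that holds the breakpoint, although the LacZ median there came from few peaks. In windows of 250 kb the SRA medians were uneven. They were 245, 106 and 415 bp in those that begin at 20.5, 21.5 and 22.75 Mb, from 3, 6 and 7 positions. The window that begins at 22.25 Mb had a median of 1210.5 bp from 16 positions. The first position past the breakpoint was 122 bp wide.

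The density of peaks stepped at the BCR breakpoint in the same place. In the 250 kb before it, SRA lists 1, 2 and 3 held 17, 17 and 26 peaks, and in the 250 kb after it each list held 0. LacZ lists 1, 2 and 3 held 3, 0 and 0 peaks before it and 0 after it. Within 1 Mb, the SRA lists held 27, 26 and 39 peaks before the breakpoint and 0, 1 and 1 after it, against 7, 5 and 0 before and 0 after in the LacZ lists. In the last 100 kb before the breakpoint, peaks covered 23.2, 21.6 and 37.7% of the bases in SRA lists 1, 2 and 3 and 3.26% in LacZ list 1. No LacZ peak of list 2 or 3 lay there.

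Of the 12 SRA positions in those 100 kb, the nearest to the breakpoint was chr22:23628144-23630203, with scores of 42.01, 43.3 and 42.29 in lists 1, 2 and 3. Next came chr22:23622576-23625056 with 58.92, 55.58 and 117.18, and chr22:23620853-23622558, found in list 3 alone with a score of 44. The nearest position was thus near the lower end of the score scale, which starts at 40 in these lists, while its neighbour was far higher in list 3 than in the others. The widest SRA position of the genome, chr22:23553804-23564159 with 10356 bp, also lay here and was found in list 3 alone, with a score of 48.75. On the other side, 893 kb passed before the next SRA position, chr22:24525695-24525816, which scored 42.92 in lists 2 and 3. The following ones were chr22:25056468-25056663, with 40.46 in every SRA list, and chr22:26873020-26873188, in list 2 alone with 42.31.

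The nearest LacZ peaks before the BCR breakpoint all came from list 1. They were chr22:23545265-23548520 (score 42.12), chr22:23516170-23516887 (score 51.73) and chr22:23501612-23503819 (score 61.97). Beyond the breakpoint the nearest was chr22:25047013-25047084 of list 2, at 1414 kb and with a score of 79.3. It was followed by chr22:26882648-26882798 of list 1 (score 44.55) and chr22:27105291-27105426 of list 2 (score 52.36). Neither probe set thus had a peak in the first 893 kb beyond the breakpoint, and 3 of these 6 LacZ peaks, all on the near side, were wider than 500 bp.

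At the ABL1 breakpoint the step was less abrupt. The 100 kb after it held 2, 1 and 1 SRA peaks and the 100 kb before it none. Over 250 kb the SRA lists held 12, 11 and 15 peaks after the breakpoint and 0 before it, and over 500 kb 21, 27 and 32 after it and 2 each before it. LacZ lists 1, 2 and 3 held 4, 0 and 0 peaks in the 250 kb after the breakpoint and 0, 1 and 0 in the 250 kb before it. Over 250 kb the step was therefore present in every SRA list and in LacZ list 1, and the counts of LacZ lists 2 and 3 were too low to show a step or its absence.

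The first SRA position after the ABL1 breakpoint, chr9:133657720-133659088, had scores of 69.06, 54.57 and 54.22. It was followed by chr9:133669899-133671252, in list 1 alone with 42.28, and chr9:133717116-133720049, with 49.18 in list 1 and 53.39 in list 3. Before the breakpoint the nearest was chr9:133356484-133356677, 250 kb away, in list 1 alone with 43.05. The next ones were chr9:133325874-133326005, with 42.35 and 41.83 in lists 2 and 3, and chr9:133319673-133319838, with 55.79, 46.75 and 48.19. These nearest positions measured 132 to 194 bp before the breakpoint and 1354 to 2934 bp after it, so their widths did not overlap. Over all SRA positions of the window the widths did overlap, with 132 to 194 bp before it and 102 to 6507 bp after it. LacZ list 2 had a 160 bp peak at chr9:133416917-133417076 before the breakpoint, and the nearest LacZ peaks after it were chr9:133683903-133684800, chr9:133823010-133824022 and chr9:133829477-133830193, all of list 1, with scores of 50.51, 42.87 and 45.18.

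**Figure D2:**
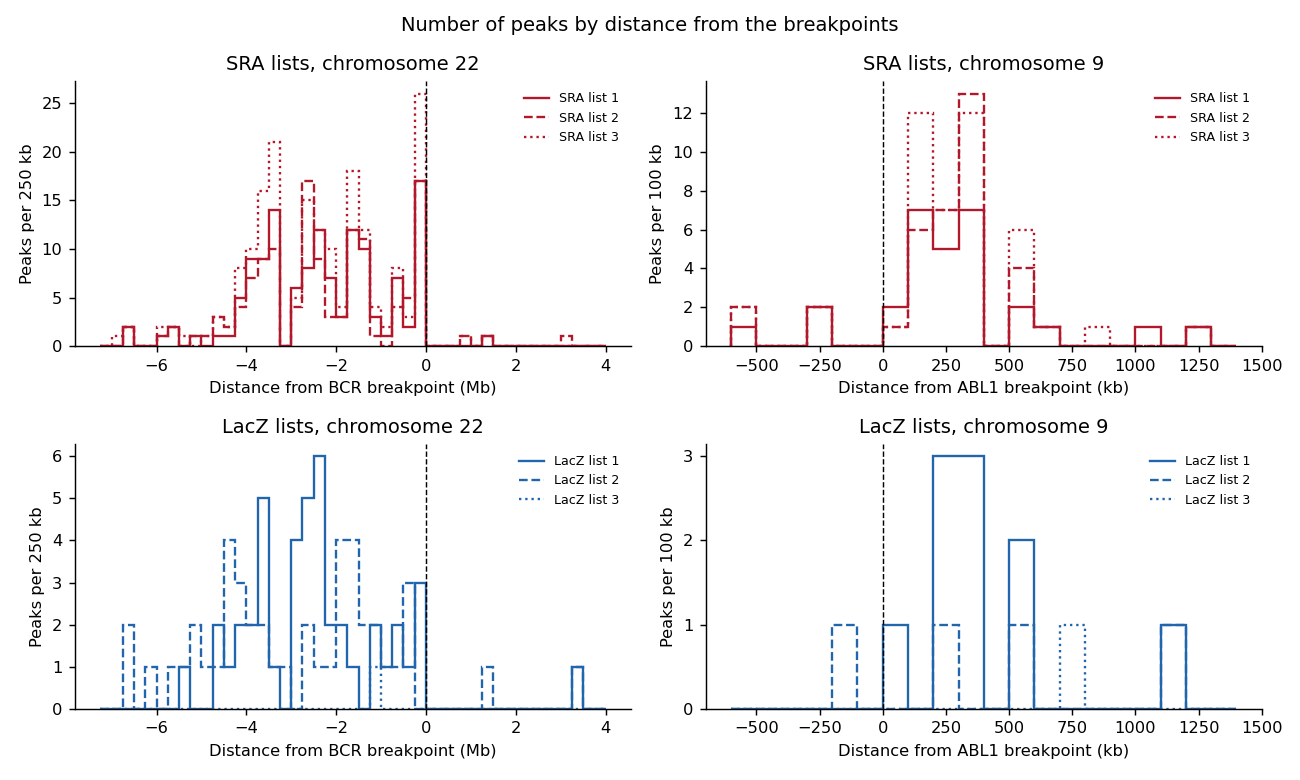
Number of peaks in each list by distance from the BCR breakpoint (bins of 250 kb, left) and the ABL1 breakpoint (bins of 100 kb, right), with a line for each SRA list above and each LacZ list below. The SRA lists fall from 17, 17 and 26 peaks to 0 at the BCR breakpoint, and on chromosome 9 they hold 1 or 2 peaks in the first 100 kb and 6 to 12 in the next.

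Over the whole of chromosome 22, with all peaks counted, the contrast between the sides was of like size in the SRA lists and LacZ lists 1 and 2. Peaks before the breakpoint made up 134 of 167, 128 of 165 and 189 of 219 peaks of the chromosome in SRA lists 1, 2 and 3, or 80.2, 77.6 and 86.3%. They made up 43 of 51 in LacZ list 1, 43 of 51 in LacZ list 2 and 1 of 2 in LacZ list 3. LacZ lists 1 and 2, both at 84.3%, thus lay within the SRA range. The density before the breakpoint was 18.4, 17.6 and 25.9 peaks per Mb in the SRA lists and 5.90, 5.90 and 0.137 in the LacZ lists. Beyond it the density was 1.21, 1.36 and 1.10 in the SRA lists and 0.293, 0.293 and 0.0366 in the LacZ lists. The ratio of the sides was 15.2, 13.0 and 23.6 in SRA and 20.1, 20.1 and 3.74 in LacZ, so the groups overlapped. Over the lists of a group it was 16.9 for SRA (451 against 100 peaks) and 19.2 for LacZ (87 against 17 peaks). This likeness depended on the peaks counted. With peaks at or above their list's median score the ratio was 36.3 for SRA and 15.0 for LacZ, with the 290 highest scores of every list it was 132, from 106 and 3 peaks, and 11.2, from 18 and 6, and without peaks wider than 1000 bp it was 9.58 and 14.5. The 290 highest scores were all of LacZ list 3. They were a smaller part of the SRA lists (4982, 4946 and 5187 peaks) than of LacZ lists 1 and 2 (2676 and 2617 peaks). The ratios of 132 and 11.2 thus rest on unlike parts of the lists. The densities of the sides were known when the segments were chosen and are a description, as are the shares of lists below.

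Gene order gives another scale for the sides of chromosome 22. In the RefSeq annotation of GRCh38.p14, used for order and not for positions, 104 protein-coding genes precede BCR on the chromosome and 346 follow it. Set against these numbers, there were 2.53 SRA positions per gene before the breakpoint and 0.127 beyond it. LacZ lists 1 and 2 together had 0.827 and 0.0462 peaks per gene. The side with fewer genes thus held more peaks of both probe sets. The coding genes next to BCR on the dense side are RAB36, which encodes a small GTPase, GNAZ, which encodes a G protein alpha subunit, and RSPH14. The coding genes that follow ABL1 include QRFP, FIBCD1, LAMC3, AIF1L and NUP214, which encode among others a neuropeptide precursor, a laminin chain and a nucleoporin. No peak was assigned to a gene, because the peaks are in hg19 and no annotation of that build was used.

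On chromosome 9 the density was 18.7, 23.7 and 29.4 peaks per Mb after the ABL1 breakpoint in the SRA lists, and 4.94, 6.59 and 6.59 in the part of the window before it. The LacZ lists held 7.18, 2.15 and 0.718 peaks per Mb after it and 0, 1.65 and 0 before it. The ratio was 3.78, 3.59 and 4.47 in the SRA lists, and over the LacZ lists it was 6.10, from 14 and 1 peaks, with an exact 95% interval from 0.928 to 258 that covers counting error only. Without LacZ list 1 it was 1.74. Without peaks wider than 1000 bp the ratio over the SRA lists was 1.35, from 34 and 11 peaks, where all peaks gave 3.96, and that over the LacZ lists was 4.79, from 11 and 1. The rest of chromosome 9, beyond the window, held 1.29, 1.24 and 1.35 SRA peaks per Mb and 0.468, 0.525 and 0.0504 LacZ peaks per Mb. The short piece before the breakpoint thus had a higher SRA density than the rest of the chromosome, from 3 or 4 peaks in a list.

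Both fusion segments took a larger share of the SRA lists than of the LacZ lists. The segments were chosen with this in view, so the p-values below describe the order of the lists and are no independent support. Chromosome 22 before the breakpoint held 2.69, 2.59 and 3.64% of all peaks in SRA lists 1, 2 and 3, and 1.61, 1.64 and 0.345% in LacZ lists 1, 2 and 3. The lowest SRA share exceeded the highest LacZ share, with means of 2.97% and 1.20 ± 0.739% (SD, n = 3) and a ratio of 2.48 (two-sided exact permutation test over lists, p = 0.1, the smallest that 3 lists against 3 allow). The 386 overlapping pairs of SRA members from different lists all had the same start and end, and 52 had the same score. None of 4 such LacZ pairs shared both ends or a score. Whether the SRA lists vary as separate samples do was not settled, and with SRA as 1 sample an exact permutation test could not give a p below 0.25. LacZ list 3 holds a single peak there, and without LacZ list 3 the ratio was 1.83. The side beyond the BCR breakpoint held 0.662, 0.748 and 0.578% of the peaks in SRA lists 1, 2 and 3. It held 0.299, 0.306 and 0.345% in LacZ lists 1, 2 and 3. The means there were 0.663 and 0.316%, so the order of the lists was not particular to the fusion segment.

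On chromosome 9 the segment after the ABL1 breakpoint held 0.522, 0.667 and 0.790% of the SRA peaks and 0.374, 0.115 and 0.345% of the LacZ peaks. The SRA lists were again all above the LacZ lists, with a mean of 0.660% against 0.278 ± 0.142% (SD, n = 3) and a ratio of 2.38 (two-sided exact permutation test, p = 0.1). Without peaks wider than 1000 bp the order did not hold. The shares were then 0.143, 0.227 and 0.315% in SRA and 0.301, 0.0767 and 0.862% in LacZ, a ratio of 0.553, in which LacZ list 3 counts with 1 of 116 peaks. With LacZ lists 1 and 2 alone, added after seeing this value, the ratio was 1.21, and the lists overlapped. Of the SRA peaks in this segment, 19 of 26, 22 of 33 and 25 of 41 were wider than 1000 bp. On chromosome 22 the ratio without these peaks was 2.06, and 1.37 with LacZ lists 1 and 2 alone. With all peaks, the window before the ABL1 breakpoint held 0.0602, 0.0809 and 0.0771% of SRA lists 1, 2 and 3. It held 0, 0.0382 and 0% of LacZ lists 1, 2 and 3. The means there were 0.0727 and 0.0127%, from 3, 4 and 4 SRA peaks and 1 LacZ peak. The order of the lists was thus not particular to the side after the ABL1 breakpoint.

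Shares were also taken in covered bases. The chromosome 22 segment held 13.7, 13.7 and 17.8% of all bases covered by peaks in SRA lists 1, 2 and 3, and 7.15, 5.62 and 0.543% in LacZ lists 1, 2 and 3, which gave a ratio of 3.39. The chromosome 9 segment held 4.48, 5.09 and 5.58% in SRA and 1.37, 0.369 and 0.173% in LacZ, a ratio of 7.91. With LacZ lists 1 and 2 alone, added after seeing the values of the lists, these ratios were 2.36 and 5.80. The SRA peaks covered 141, 142 and 200 kb of the chromosome 22 segment, and the LacZ peaks 35.2, 26.4 and 2.05 kb. Among the 290 highest scores of every list, the chromosome 22 segment held 12.2% of the SRA peaks and 2.07% of the LacZ peaks, a ratio of 5.89 from 106 and 18 peaks, and the chromosome 9 segment 4.48 and 0.230%, a ratio of 19.5 from 39 and 2 peaks. This choice leaves LacZ list 3 whole, and 1 of the 18 and 1 of the 2 were its own. It also keeps a smaller part of the SRA lists than of LacZ lists 1 and 2. With LacZ lists 1 and 2 alone, also added after seeing the data, the ratios were 4.16 and 26.0, the latter against a single LacZ peak. The highest SRA scores thus lay in these segments more often than SRA peaks in general did. The same held for LacZ lists 1 and 2 on chromosome 22, with means of 2.93% of the highest scores and 1.62% of all peaks. On chromosome 9 it did not, with 0.172 and 0.244%.

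**Figure D3:**
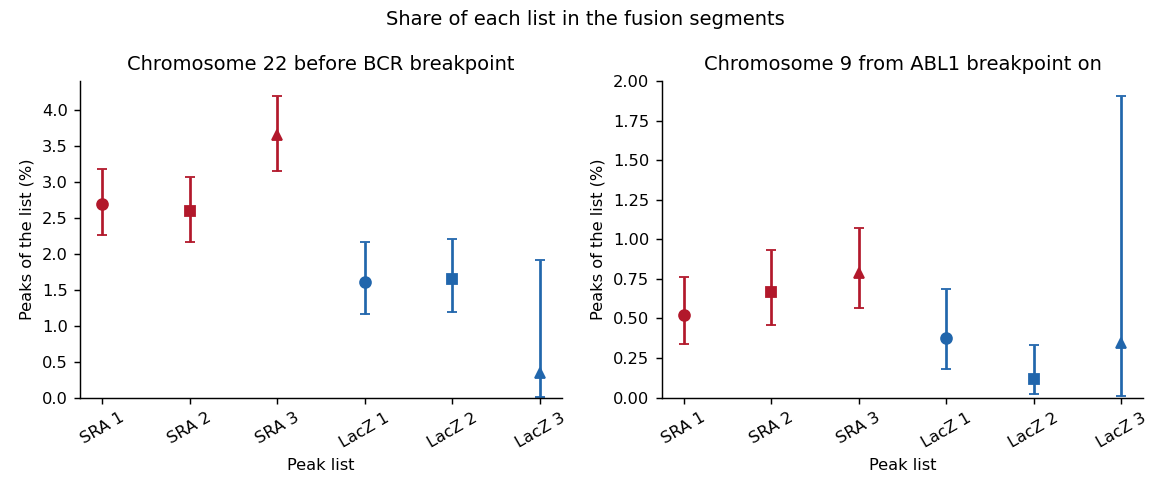
Share of the peaks of each list (%) that lay in the chromosome 22 segment (left) and the chromosome 9 segment (right), with exact 95% binomial intervals for counting error. The SRA lists lie at 2.59 to 3.64% and the LacZ lists at 0.345 to 1.64% on the left, and at 0.522 to 0.790% and 0.115 to 0.374% on the right.

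Scores on chromosome 22 were higher before the breakpoint in the SRA lists, and LacZ showed no clear difference. The median score before and beyond the BCR breakpoint was 49.8 and 42.4 in SRA list 1, 48.5 and 42.9 in list 2 and 48.8 and 43.0 in list 3. It was 47.1 and 47.5 in LacZ list 1, 47.0 and 53.2 in list 2 and 40.5 and 41.4 in list 3. Each SRA list was higher before the breakpoint, by 7.38, 5.58 and 5.76, and no LacZ list was, although LacZ lists 1 and 2 had 8 peaks each beyond the breakpoint and list 3 had 1 on either side. The mean LacZ difference was −2.52 ± 3.19 (SD, n = 3), −0.685 without LacZ list 2 and −0.410 with peaks at or above their list's median score, which left 2 lists. The median over the whole list was 43.8, 43.9 and 44.3 in SRA and 44.2, 44.1 and 44.9 in LacZ, so before the breakpoint both the SRA lists and LacZ lists 1 and 2 scored above their whole lists, and beyond it the SRA lists alone of these scored slightly below. The score is deposited under a heading of −log10 of the p-value and starts at 40, so its scale was not settled here, and scores are given and averaged as deposited.

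**Figure D4:**
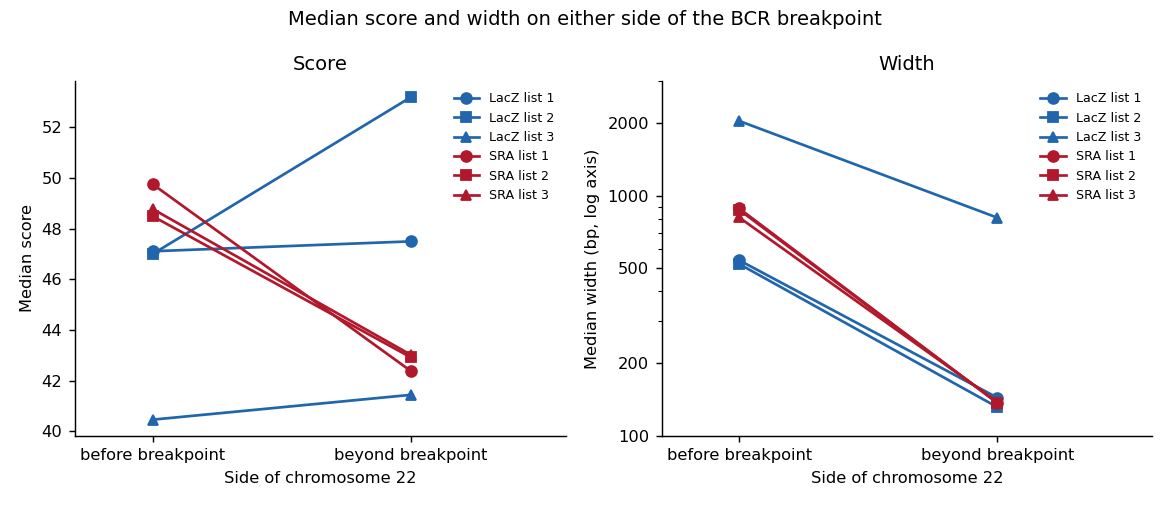
Median score (left) and median width (right, bp, log axis) of the peaks of each list before and beyond the BCR breakpoint on chromosome 22, joined by a line for each list. The SRA lines fall from 48.5 to 49.8 down to 42.4 to 43.0 in score, no LacZ line falls in score, and in width the lines of the SRA lists and of LacZ lists 1 and 2 fall, while LacZ list 3 has 1 peak on either side.

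The highest scores of all members were on chromosome 9, after the ABL1 breakpoint. Named here and below are the highest in mean score of the positions that all 3 SRA lists hold. The position chr9:133805364-133806648 scored 126, 164.93 and 180.54 in SRA lists 1, 2 and 3, and chr9:133765324-133771830, which is 6507 bp wide, scored 148.69, 138.38 and 116.05. Next were chr9:133994809-133998851 with 105.64, 99.87 and 80.91, chr9:133924288-133925932 with 78.92, 84.48 and 100.11, and chr9:134112659-134114714 with 58.83, 79.48 and 99.7. Their order changed between lists, and list 1 was the lowest for 3 of them and the highest for the other two.

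Before the BCR breakpoint the highest of the positions in all 3 SRA lists was chr22:23610212-23613758, with 93.64, 92.64 and 97.5, 20.6 kb from the breakpoint by its midpoint. The others were chr22:19755098-19756365 with 77.75, 88.61 and 89.82, chr22:23604024-23607528 with 58.16, 105.35 and 85.26, chr22:23622576-23625056, given above, and chr22:22901272-22902985 with 75.77, 62.42 and 83.95. Of these 5, 3 lay in the last 100 kb before the breakpoint, and chr22:22901272-22902985 alone was overlapped by a LacZ peak.

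The positions on the other sides scored lower and were narrow. Beyond the BCR breakpoint the highest was chr22:43522680-43522760, 81 bp wide with 66.75 in each SRA list. It was followed by chr22:39027931-39028082 with 48.65, 58.11 and 58.11, chr22:39504882-39505040 with 44.8, 54.23 and 56.13, chr22:29015853-29015970 with 50.57, 50.15 and 49.85, and chr22:39410746-39410844 with 47.65, 48.72 and 48.89. In the window before the ABL1 breakpoint only 2 positions were in all 3 lists, chr9:133319673-133319838, given above, and chr9:133030811-133030996 with 50.37, 51.46 and 56.05. The highest mean score on these sides, 66.75, was below those of all 10 positions named in the fusion segments, of which the lowest was 74.0. These were picked by score from 51 and 18 positions in the fusion segments, against 21 and 2 on the other sides. The sets are therefore unlike, and this order is a description.

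**Figure D5:**
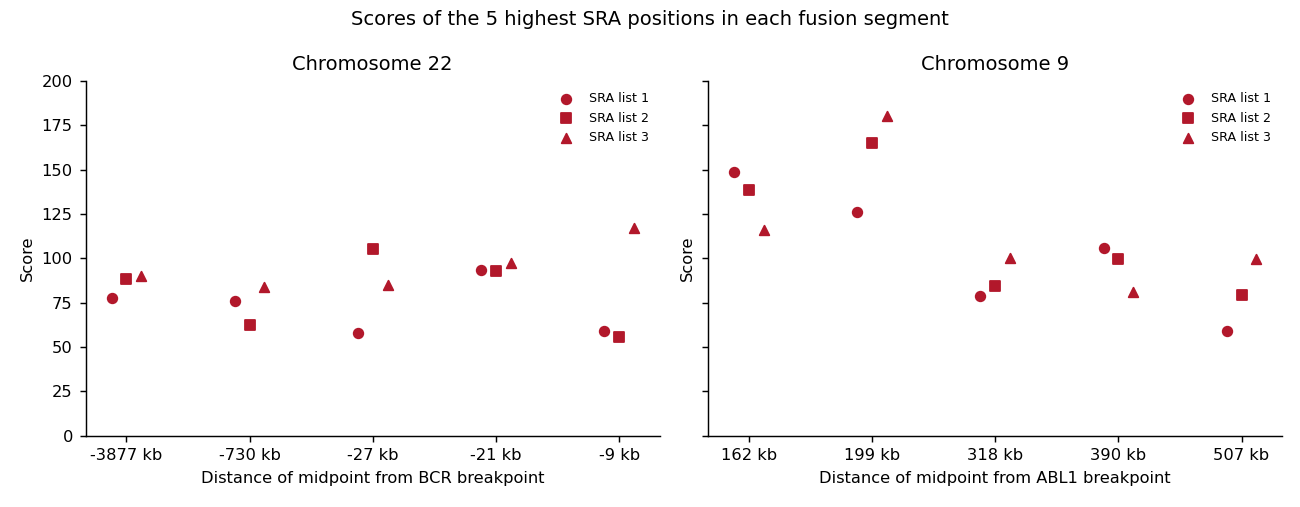
Score in each SRA list of 5 positions, those highest in mean score of all that the 3 lists share, before the BCR breakpoint (left) and after the ABL1 breakpoint (right), ordered by the distance of the midpoint from the breakpoint. Scores range from 55.6 to 117 on chromosome 22 and from 58.8 to 181 on chromosome 9.

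Among LacZ peaks the highest scores before the BCR breakpoint were 92.29 at chr22:22882641-22883366 and 77.25 at chr22:21065924-21066089, both of list 2, and 71.67 at chr22:22983621-22983710 of list 1. Beyond it, chr22:25047013-25047084, chr22:36431171-36431297 and chr22:43828697-43828816 of list 2 scored 79.3, 67.73 and 54.75. After the ABL1 breakpoint the highest were 67.28 at chr9:134129207-134130019 of list 1, 52.95 at chr9:134169906-134170091 of list 2 and 50.51 at chr9:133683903-133684800 of list 1. The 3 highest LacZ scores thus overlapped between the sides of the BCR breakpoint. LacZ list 3 had only 3 members, chr22:22595886-22597931, chr22:40593916-40594724 and chr9:134403942-134404591, with scores of 40.46, 41.44 and 41.89.

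SRA positions before the BCR breakpoint were shared between SRA lists about as often as in the genome, and those beyond it more often. Over all SRA positions, 53.1% were in at least 2 SRA lists and 21.5% in all 3. Before the breakpoint 137 of 263 were in at least 2 lists (52.1%, 95% Wilson interval 46.1 to 58.1%) and 51 in all 3 (19.4%). Beyond it 35 of 44 were (79.5%, interval 65.5 to 88.8%) and 21 were in all 3 (47.7%). With peaks at or above their list's median score the gap was smaller, with 43.4% in at least 2 lists before the breakpoint and 52.9% beyond it. Several positions beyond the breakpoint also had the same score in each SRA list, such as chr22:43522680-43522760 with 66.75 and chr22:35939454-35939593 with 45.84. On chromosome 9, 26 of 56 positions after the breakpoint and 4 of 5 before it were in at least 2 lists. Of the 126 positions before the BCR breakpoint in a single list, 28 were in list 1, 24 in list 2 and 74 in list 3, against 1320, 1254 and 1486 in the genome. The higher count of SRA list 3 in this segment thus came mainly from positions that lists 1 and 2 lack.

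Overlap with LacZ was more frequent in the fusion segments. Over the genome 78 of 8658 SRA positions, or 0.901%, shared at least 1 bp with a LacZ peak. Before the BCR breakpoint 16 of 263 did (6.08%, 95% Wilson interval 3.78 to 9.65%) and after the ABL1 breakpoint 3 of 56 did (5.36%, interval 1.84 to 14.6%). On the other sides 0 of 44 and 0 of 5 did. The fusion segments thus held 19 of the 78 such positions of the genome. Wide peaks have more bases to share. LacZ peaks were also denser there, at 5.90 per Mb before the BCR breakpoint and 0.293 beyond it in LacZ lists 1 and 2. The part of width and of LacZ density in this count was not tested.

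The 16 positions of chromosome 22 ran from chr22:19349022-19349944 to chr22:23499715-23503029, with 155 to 3315 bp. The narrowest, chr22:21822519-21822673, was in a single SRA list, with a score of 68.06, and was the only one that peaks of LacZ lists 1 and 2 both overlapped. The last had a mean SRA score of 59.4 and overlapped a LacZ list 1 peak that scored 61.97. Those in all 3 SRA lists also included chr22:22269844-22271387 and chr22:22901272-22902985, with mean scores of 73.1 and 74.0 on LacZ peaks that scored 40.89 and 48.06. On chromosome 9 the positions were chr9:133822009-133823976, chr9:133830161-133830967 and chr9:133889185-133890788, which shared 967, 33 and 179 bp with LacZ peaks. None overlapped LacZ list 3.

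Peaks were crowded in the fusion segments, with interruptions. The median gap between neighbouring SRA positions was 7.61 kb before the BCR breakpoint and 323 kb beyond it, and 4.66 kb after the ABL1 breakpoint and 18.3 kb before it. The longest gaps were 572 kb before the BCR breakpoint, at chr22:17096984-17669163, and 3716 kb beyond it, at chr22:47202783-50918906. On chromosome 9 they were 287 kb at chr9:133032780-133319672 before the breakpoint and 237 kb at chr9:134228714-134466099 after it. Inside the stretches of wide peaks, the longest was 390 kb at chr22:20329809-20719697, where LacZ lists 1 and 2 held 2 and 1 peaks, and 114 kb at chr9:133998852-134112658, where no LacZ peak lay. Whether reads can be placed in these gaps was not tested.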

How the data were processed

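Chromatin of K562 cells was pulled down with SRA or LacZ probes and sequenced, and the authors aligned single reads to hg19 and called peaks with MACS. CASAVA 1.8.2, MACS and deepTools are named in the submitters' processing notes, and the MACS version and the control of each list are not given in the sources used here. The deposited lists hold a start, an end and a score for each peak, and the lowest score is 40. Starts are counted from 0 in the lists and from 1 in the text. Peak positions are those of the authors apart from this shift, and widths, gaps and shared bases were computed from them.

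Peaks were placed by their midpoint on either side of the breakpoints. Density was taken over the span from the first to the last peak of all lists on chromosome 22, and over the window on chromosome 9. Overlap meant at least 1 bp. Shares of lists were compared by two-sided exact permutation tests over lists, and no test was made over peaks. Intervals are exact binomial or Wilson intervals and cover counting error only. The positions named were, in each of the 4 segments, the 5 of highest mean score that all 3 SRA lists hold and the 3 highest LacZ peaks, the 3 nearest to each breakpoint for either probe set, those that overlap LacZ, all members of LacZ list 3, and the longest gaps. The widest position, the limit of 500 bp and the ends of the stretches of wide peaks were chosen after their values were seen. The members and lists were chosen with earlier results of these data known.

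The results were recomputed with each list left out and with peaks that reach their list's median score. They were also recomputed with as many of the highest scores as the shortest list holds, and after joining peaks up to 500 bp apart. Further alternatives were breakpoints moved by 100 kb, lists without peaks over 1000 bp and pairs of list number. Shares were also taken on chromosomes 1 to 22 and X, and with covered bases. The counting was tested on simulated peak lists. No sequence is shown, as no genome of the build hg19 was used. The software was scipy 1.17.1, numpy 2.4.6, matplotlib 3.10.9 and pandas 2.3.3 under Python 3.11.15.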

Additional observations from a re-analysis of the deposited data

Results flagged for a closer look

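The difference in median score between the sides of chromosome 22 was above 0 in every SRA list and below 0 in every LacZ list, which flagged it. It was 7.38, 5.58 and 5.76 in SRA lists 1, 2 and 3 and −0.390, −6.20 and −0.980 in LacZ lists 1, 2 and 3, so that the group means differed by 8.76. This difference between the groups was not tested. The LacZ values rest on 8, 8 and 1 peaks beyond the breakpoint, and their mean of −2.52 has an SD of 3.19. It was −0.685 without LacZ list 2 and −0.410 once peaks that scored below their list's median were left out, so no direction is claimed for LacZ.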

How the results depend on the processing

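There were 109 values of 11 results under alternatives. The direction could not change in 2 of them, with SRA counted as 1 sample, and 8 concern the LacZ score difference, for which no direction is claimed. Among the other 99, some were no check either. Moving the BCR breakpoint 100 kb higher or the ABL1 breakpoint 100 kb lower passed no peak and left the counts unchanged. Of the 99, 98 kept the direction reported. The exception was the chromosome 9 share, SRA over LacZ, at 0.553 without peaks over 1000 bp, where 1 of 116 peaks of LacZ list 3 weighs most. With peaks at or above their list's median score the ratio of shares was 3.09 on chromosome 22 and 5.004 on chromosome 9. In covered bases the ratios of shares were 3.39 and 7.91, and 2.36 and 5.80 with LacZ lists 1 and 2 alone. Among the 290 highest scores they were 5.89 and 19.5, and 4.16 and 26.0 with LacZ lists 1 and 2 alone, where 1 LacZ peak was left on chromosome 9. Both choices without LacZ list 3 were added after seeing the data. With each list left out, the ratio of shares ran from 1.83 to 3.05 on chromosome 22 and from 1.84 to 2.87 on chromosome 9. Pairing lists of the same number as a replicate block gave ratios of 3.03 and 2.65, each with p = 0.25 by exact permutation of signs, the lowest reachable with 3 pairs. The pairs gave 1.67, 1.58 and 10.6 on chromosome 22, so the first rests on LacZ list 3, and 1.40, 5.82 and 2.29 on chromosome 9, so the second rests largely on pair 2. Deviations of same-numbered lists over 23 chromosomes correlated at 0.248, −0.216 and 0.0310, which showed no pairing by number. With 3 lists in a group and 290 peaks in LacZ list 3, these values cannot exclude a pairing.

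The SRA density ratio on chromosome 22 was 36.3 with peaks at or above their list's median score, 132 with the 290 highest scores and 9.58 without peaks over 1000 bp. The SRA width difference was 803 bp under the score limit, 663 bp with the breakpoint 100 kb lower and 368 bp without peaks over 1000 bp, which removes the widest by construction. The SRA score difference was 4.54 without those peaks. The LacZ score difference, −2.52 as reported, was −0.685 without LacZ list 2 and −0.410 under the score limit. The share of SRA positions in at least 2 lists differed by −27.5 percentage points, before the BCR breakpoint minus beyond it, and by −9.53 under the score limit. Causes of these shifts were not tested. The chromosome 9 density ratio gave no value for LacZ without LacZ list 2, nor for either probe set with 290 peaks, as no peak lay before the breakpoint. Depth and copy number were not measured, and no exact permutation test in this design can pass 0.05.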
